A study of Mus musculus with 8 samples.

Results

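The adherens and tight junction genes other than claudins were followed in sorted glomerular cells of the mouse kidney. They were 9 genes, Cdh5, Pecam1, Esam, Jam2, Jam3, F11r, Tjp1, Ocln and Jup, taken by symbol from a table of read counts, out of 17326 genes whose lines held all 8 counts. All 9 were on such lines and all 9 passed the filter on low counts. The 8 libraries of polyadenylated RNA formed 4 groups of 2: endothelium and podocytes from wild-type mice (EMCN+/+), and endothelium and podocytes from mice homozygous for loss of Emcn (EMCN-/-). Emcn encodes endomucin, a sialomucin of the endothelial glycocalyx. The labels give no age, sex or strain, no sorting markers, no description of the deleted part of Emcn and no statement of whether the endothelium alone or the whole animal lost it. They do not say whether the 2 libraries of a group came from separate animals, so every p-value below measures the spread between these libraries, which may be technical.

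Endothelial cells are held together at their borders by adherens junctions, built on homophilic cadherins tied to catenins and actin, and by tight junctions, built on claudins, occludin and immunoglobulin-type adhesion molecules tied to scaffold proteins. The glomerular endothelium is fenestrated and sits on a basement membrane shared with the podocytes, whose foot processes are joined by the slit diaphragm, a modified junction that contains both adherens and tight junction proteins. Among the 9 genes, Cdh5 (VE-cadherin) is the adhesive core of endothelial adherens junctions, and Pecam1, Esam, Jam2, Jam3 and F11r (JAM-A) encode immunoglobulin-type adhesion molecules. Ocln (occludin) is a tight junction membrane protein, Tjp1 (ZO-1) is the scaffold beneath it, and Jup (plakoglobin) is a catenin that binds cadherins.

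The promoter table from RefSeq (GRCm38.p6) held F11r, Tjp1, Ocln and Jup alone of the genes followed here. Their windows, from 250 bases before to 50 bases after an annotated start, are shown 5′ to 3′ for the sequence features that these 4 genes share. F11r is at chr1:171437311-171437610 on the plus strand, Tjp1 at chr7:65371195-65371494 on the minus strand, Ocln at chr13:100552669-100552968 on the minus strand and Jup at chr11:100397741-100398040 on the minus strand. The Tjp1 start lies inside the annotated span of the gene, and Ocln has another tabulated start that overlaps this window. Capitals mark matches, on either strand, to any of 4 short motifs. The GC box, to which Sp and Klf factors bind, was searched as GGGCGG. The core of the sites of ETS factors, a family that includes regulators of endothelial genes, was searched as CCGGAA. The E-box of the Snail and Zeb repressors was searched as CACCTG, and the TATA box of core promoters as TATAAA.
F11r: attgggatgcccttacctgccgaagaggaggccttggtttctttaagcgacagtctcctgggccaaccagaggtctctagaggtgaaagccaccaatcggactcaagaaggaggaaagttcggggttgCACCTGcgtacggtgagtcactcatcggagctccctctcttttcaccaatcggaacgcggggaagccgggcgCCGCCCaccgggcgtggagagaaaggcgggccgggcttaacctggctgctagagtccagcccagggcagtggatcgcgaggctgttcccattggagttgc
Tjp1: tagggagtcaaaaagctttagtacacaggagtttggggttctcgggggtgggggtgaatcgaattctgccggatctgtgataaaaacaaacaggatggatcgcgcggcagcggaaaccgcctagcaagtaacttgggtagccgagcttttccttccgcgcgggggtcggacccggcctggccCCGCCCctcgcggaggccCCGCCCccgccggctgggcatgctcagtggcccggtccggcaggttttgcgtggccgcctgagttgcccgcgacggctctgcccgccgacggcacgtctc
Ocln: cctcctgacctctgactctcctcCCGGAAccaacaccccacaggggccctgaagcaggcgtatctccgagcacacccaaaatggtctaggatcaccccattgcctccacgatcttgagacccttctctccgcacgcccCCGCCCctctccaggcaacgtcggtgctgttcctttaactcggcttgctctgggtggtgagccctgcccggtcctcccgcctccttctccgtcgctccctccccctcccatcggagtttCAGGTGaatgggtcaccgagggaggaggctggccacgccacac
Jup: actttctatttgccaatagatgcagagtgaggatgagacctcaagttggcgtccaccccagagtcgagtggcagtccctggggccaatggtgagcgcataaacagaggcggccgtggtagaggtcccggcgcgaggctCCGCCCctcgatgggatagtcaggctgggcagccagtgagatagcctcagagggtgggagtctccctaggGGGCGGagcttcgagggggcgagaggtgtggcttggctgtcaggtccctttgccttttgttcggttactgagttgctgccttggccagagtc
Each of the 4 windows held at least 1 GC box, with 2 in Tjp1 and 2 in Jup, against 35.7% of all 32851 promoter windows in the table. The ETS letters were found in the Ocln window alone of the 4 (14.9% of all windows) and the E-box in those of F11r and Ocln (20.2%). The window of the other Ocln start held no ETS letters, 1 GC box and 2 E-boxes, with 68% GC and 24 CpG pairs. None held the TATA box (13.6%). The GC content of the 4 windows shown ran from 60.3% to 65.3%, where the median of all windows was 52.7% and the upper quartile 61.7%. F11r and Jup lay below that quartile. The 4 held 14 to 31 CpG pairs, where the median was 7 and the upper quartile 20, which Tjp1 alone of them exceeded. These matches describe letters in these windows and nothing about binding. Cdh5, Pecam1, Esam, Jam2 and Jam3 had no entry, so the windows could not be compared with theirs or set against the levels below.

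In the mm10 assembly (GRCm38), Cdh5 spans chr8:104101613-104144504 on the plus strand, Pecam1 chr11:106654213-106715281 on the minus strand and Esam chr9:37528089-37538319 on the plus strand. Jam2 spans chr16:84774123-84826380 on the plus strand, Jam3 chr9:27097384-27155421 on the minus strand and F11r chr1:171437561-171464593 on the plus strand. Tjp1 spans chr7:65296165-65527850, Ocln chr13:100496504-100552718 and Jup chr11:100368856-100397839, all on the minus strand. Jam3 alone shares exonic bases with another annotated gene, 1159 of them with the antisense transcript Gm48796. Use of strand in counting is not given in the sources used here, so reads of Jam3 and of Gm48796 could not be told apart.

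Library totals on complete lines ran from 10478956 to 17386042 counts, and 9.14% to 23.1% of them fell on the 13 protein-coding mitochondrial genes. Levels are given as CPM, counts scaled to a common library size, after the TMM correction for library composition. Emcn read 1972 and 1828 CPM in wild-type endothelium against 173 and 179 CPM in knockout endothelium, and 74.1 and 35.9 CPM in wild-type podocytes against 5.59 and 4.94 CPM in knockout podocytes, which matches the genotype labels in every library. The 12 endothelial markers summed to between 9199 and 12062 CPM in the endothelial libraries and to between 564 and 917 CPM in the podocyte libraries. The 8 podocyte markers on complete lines summed to between 1059 and 1731 CPM in endothelium and to between 6581 and 13462 CPM in podocytes. Each sort held its own markers at the higher level, and no marker of either list was at 0 in any library. The 8 tubule markers were high in every library, from 2979 CPM in knockout endothelium replicate 2 to 13787 CPM in wild-type endothelium replicate 3. In bulk RNA, fewer cells of a type and less RNA per cell cannot be told apart.

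Cdh5, Pecam1, Esam, Jam2 and Jam3 were higher in endothelium than in podocytes in both genotypes, and Tjp1 was higher in podocytes than in endothelium in wild type. F11r, Jup and Ocln were read in both cell types with smaller differences. In the wild-type comparison 5 of 9 genes were higher in endothelium, 1 was lower and 3 did not pass, where 8.99% of all 16477 genes tested passed in either direction (4.26% higher and 4.73% lower). Of the same 9 genes, 6 in the knockout comparison were higher and none was lower at an edgeR adjusted p under 0.05, where 10.4% of all genes passed (4.28% higher and 6.09% lower). With every library scaled by its total alone, 60.6% of all knockout calls were higher in endothelium, against 41.3% with TMM. The median log2 fold change of the 9 genes was 2.05 in wild type and 1.97 in knockout, beside -0.01 for all genes in each. These genes were named for endothelial junctions, so a higher level in endothelium was part of how the list was made up.

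**Figure D1:**
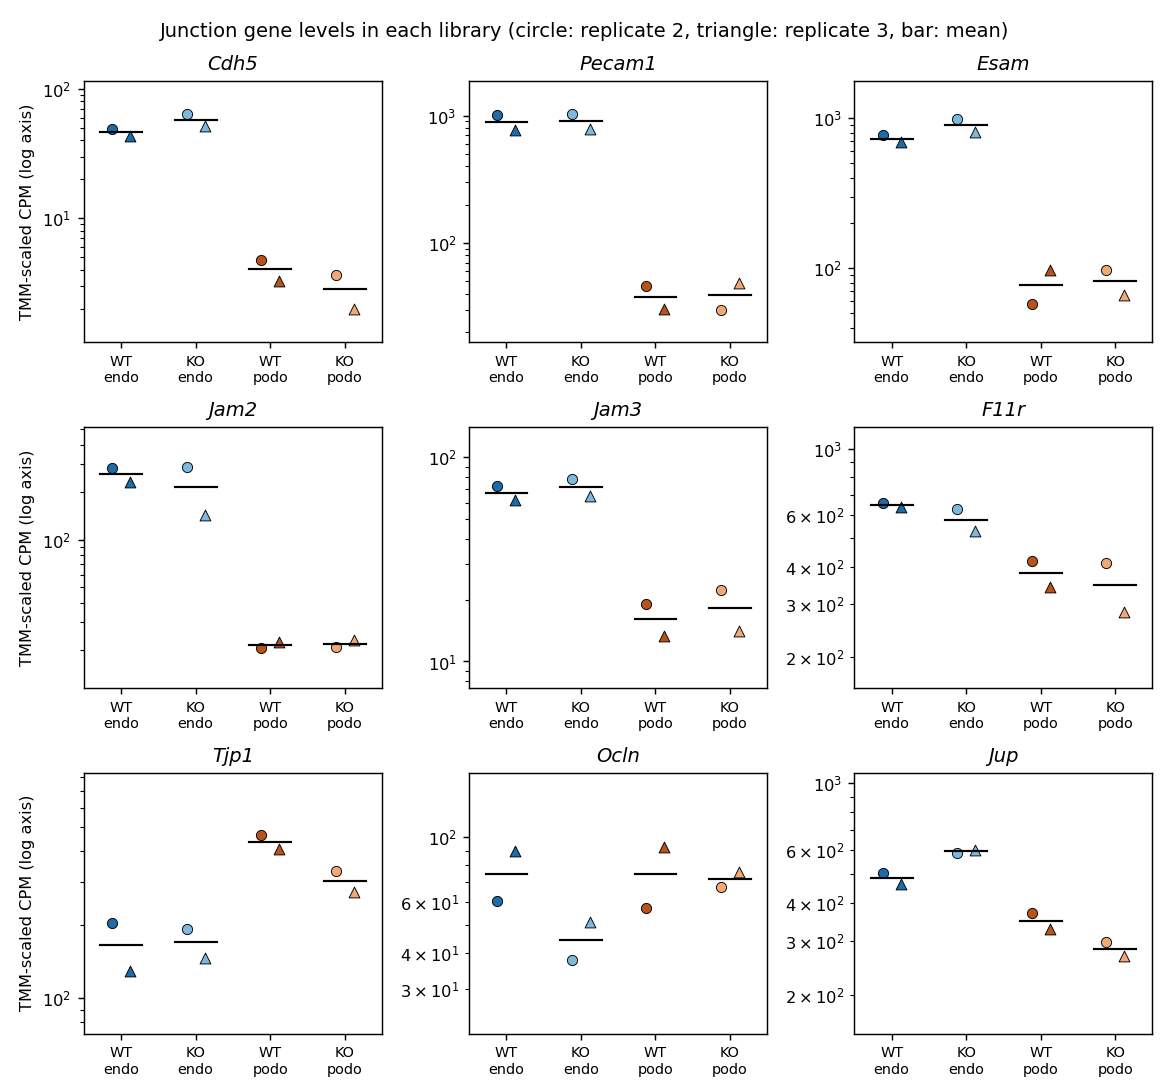
Level of each of the 9 junction genes in every library, as TMM-scaled CPM on a log axis, for wild-type (WT) and knockout (KO) endothelium (endo) and podocytes (podo). Circles are replicate 2, triangles replicate 3 and bars the group means. The top row and Jam2 and Jam3 sit far higher in the 4 endothelial libraries, Tjp1 sits higher in the 4 podocyte libraries, and Ocln overlaps between the cell types in wild type.

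Cdh5, the endothelial cadherin, read 49.3 and 43.1 CPM in wild-type endothelium, 63.9 and 51.4 CPM in knockout endothelium, 4.80 and 3.27 CPM in wild-type podocytes and 3.67 and 1.99 CPM in knockout podocytes. The 4 endothelial libraries lay well above the 4 podocyte libraries, whose values rest on 27 to 74 reads each. Its endothelium-to-podocyte log2 fold change was 3.51 ± 0.35 (SE) in wild type (edgeR adjusted p = 0.000151) and 4.34 ± 0.37 in knockout (edgeR adjusted p = 6.94e-05).

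Pecam1, a homophilic adhesion molecule of endothelium, platelets and leukocytes, showed the widest gap of the 9 genes. It read 1014 and 769 CPM in wild-type endothelium, 1039 and 779 CPM in knockout endothelium, 45.8 and 30.2 CPM in wild-type podocytes and 30.0 and 48.7 CPM in knockout podocytes. The genotypes interleaved in both cell types. Endothelium was higher by 4.55 ± 0.37 log2 units in wild type (edgeR adjusted p = 5.78e-05) and by 4.53 ± 0.37 in knockout (edgeR adjusted p = 5.36e-05). The knockout value of Cdh5, 4.34 ± 0.37, lay within that spread. With 1 library left out the knockout values overlapped, at 4.22 to 4.91 for Pecam1 and 3.97 to 4.84 for Cdh5.

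Esam, an adhesion molecule of endothelial tight junctions and platelets, read 768 and 692 CPM in wild-type endothelium and 982 and 805 CPM in knockout endothelium, so that both knockout libraries lay above both wild-type libraries. In podocytes it read 57.8 and 96.6 CPM in wild type and 97.5 and 66.0 CPM in knockout. Its log2 fold change between the cell types was 3.24 ± 0.33 in wild type (edgeR adjusted p = 0.000163) and 3.45 ± 0.33 in knockout (edgeR adjusted p = 0.000135). Platelets carry Pecam1, Esam, Jam3 and F11r. The 5 platelet markers on complete lines summed to 6.56 to 26.6 CPM per library, with Gp9 at 0 in all 4 podocyte libraries and Ppbp at 0 in replicate 2 of both podocyte groups. The 4 immune markers on complete lines summed to 24.1 to 53.8 CPM in endothelium and to 80.5 to 119 CPM in podocytes. The part of platelets and leukocytes in these values was not tested.

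Jam2 (JAM-B) and Jam3 (JAM-C) encode junctional adhesion molecules that bind each other across cell contacts. Jam2 read 287 and 233 CPM in wild-type endothelium, 289 and 144 CPM in knockout endothelium, 20.8 and 22.6 CPM in wild-type podocytes and 20.9 and 23.2 CPM in knockout podocytes. Its podocyte libraries lay close together, and knockout endothelium had the widest spread, with replicate 3 the lowest endothelial library. Jam2 was higher in endothelium by 3.58 ± 0.34 log2 units in wild type (edgeR adjusted p = 0.000113) and by 3.29 ± 0.33 in knockout (edgeR adjusted p = 0.000163).

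Jam3 read 72.3 and 62.1 CPM in wild-type endothelium, 78.5 and 64.4 CPM in knockout endothelium, 19.1 and 13.4 CPM in wild-type podocytes and 22.4 and 14.1 CPM in knockout podocytes. The cell types did not overlap, and the genotypes overlapped within each. Endothelium was higher by 2.05 ± 0.30 log2 units in wild type (edgeR adjusted p = 0.00137) and by 1.97 ± 0.30 in knockout (edgeR adjusted p = 0.00186).

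The podocyte level of a gene as a share of its endothelial level set these 5 genes beside the 12 endothelial markers, whose podocyte levels were 2.96% to 39.4% of their endothelial levels in wild type (median 5.89%) and 1.99% to 19.0% in knockout (median 6.03%). Pecam1 stood at 4.27% in wild type and 4.33% in knockout, Jam2 at 8.36% and 10.2%, Cdh5 at 8.72% and 4.91%, and Esam at 10.6% and 9.15%. All 4 fell inside the range of the markers in both genotypes. Jam3 stood at 24.2% in wild type, above 11 of the 12 markers (Plvap alone was higher), and at 25.6% in knockout, above all 12. How much of the podocyte signal of these genes was made by podocytes was not tested.

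F11r, the third junctional adhesion molecule, is also made by epithelia. It read 657 and 638 CPM in wild-type endothelium, 625 and 527 CPM in knockout endothelium, 419 and 344 CPM in wild-type podocytes and 413 and 283 CPM in knockout podocytes. All 4 endothelial libraries were above all 4 podocyte libraries, with a smaller fold than Jam2 or Jam3 showed. The log2 fold change was 0.76 ± 0.26 in wild type (95% interval 0.19 to 1.34, edgeR adjusted p = 0.114) and 0.73 ± 0.26 in knockout (0.15 to 1.30, edgeR adjusted p = 0.117), and neither passed. The knockout value was 0.47 without knockout podocyte replicate 3. The call depended on the genes and libraries in the fit: with genes under 5 CPM left out, F11r was higher in endothelium by 0.83 in wild type (edgeR adjusted p = 0.0488) and by 0.89 in knockout (edgeR adjusted p = 0.0359), and with the wild-type libraries alone by 0.87 (edgeR adjusted p = 0.0498). Among the 9 genes, 7 had both wild-type endothelial libraries above both wild-type podocyte libraries and 1 had both below, where 21.2% of all genes were above and 25.7% below in this way (46.9% in either direction). In knockout these counts were 7 above and 2 below, where 27.3% of all genes were above and 27.8% below (55.0% in either).

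**Figure D2:**
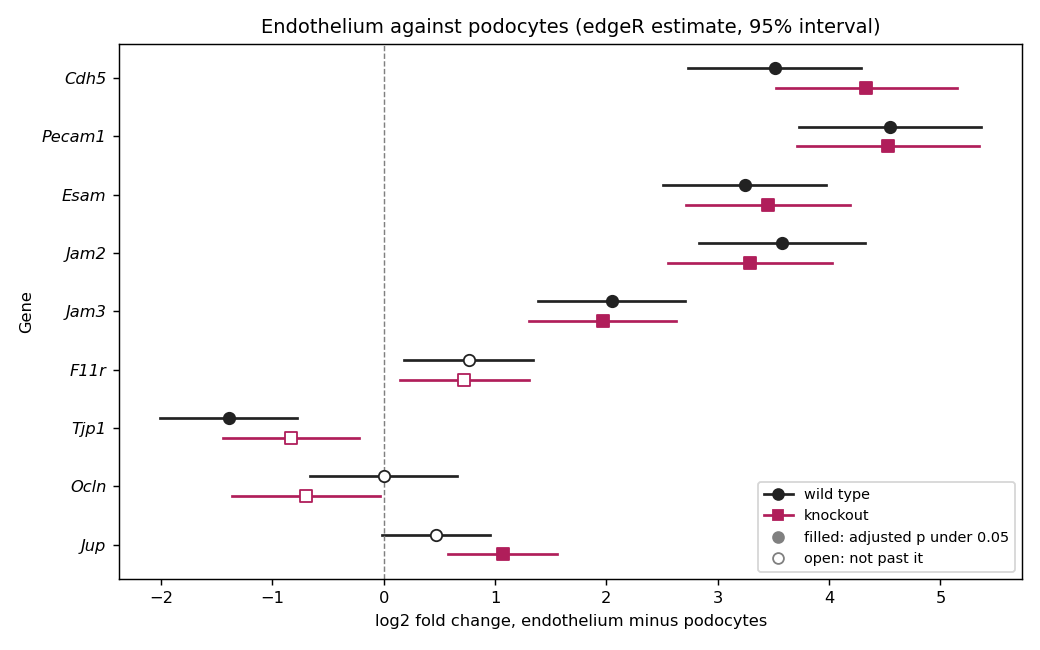
Difference between endothelium and podocytes for each gene, as the edgeR log2 fold change (endothelium minus podocytes) with its 95% interval, in wild type (circles) and knockout (squares). Filled symbols passed an adjusted p of 0.05 over all genes and open ones did not. Pecam1 lies farthest right at 4.55 and 4.53, and Tjp1 lies left of 0 in both genotypes.

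Tjp1, the ZO-1 scaffold, is also a component of the podocyte slit diaphragm. It read 464 and 406 CPM in wild-type podocytes, 331 and 272 CPM in knockout podocytes, 202 and 129 CPM in wild-type endothelium and 192 and 147 CPM in knockout endothelium. Every podocyte library lay above every endothelial one, and wild-type podocytes lay above knockout podocytes. In wild type the endothelial level fell below the podocyte level by 1.39 ± 0.28 log2 units (edgeR adjusted p = 0.00885). That call was lost without wild-type endothelium replicate 3 (log2 fold change -1.10, edgeR adjusted p = 0.0950), without wild-type podocyte replicate 2 (-1.28, edgeR adjusted p = 0.0926) and with scaling by library size alone (-1.29, edgeR adjusted p = 0.0526). In knockout the log2 fold change was -0.83 ± 0.27 (95% interval -1.44 to -0.22, edgeR adjusted p = 0.0883) and did not pass. It was -0.54 with scaling by library size alone.

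Ocln, the occludin of tight junctions, had the same mean in both wild-type cell types. It read 60.1 and 89.8 CPM in wild-type endothelium, 56.9 and 92.8 CPM in wild-type podocytes, 67.6 and 76.0 CPM in knockout podocytes and 37.9 and 50.9 CPM in knockout endothelium. The 3 other groups overlapped one another, and knockout endothelium lay below them all. In wild type the cell types did not differ beyond the spread (log2 fold change 0.00 ± 0.30, 95% interval -0.66 to 0.66, edgeR adjusted p = 0.999). In knockout the log2 fold change was -0.69 ± 0.30 (95% interval -1.36 to -0.03, edgeR adjusted p = 0.198), and -0.43 with scaling by library size alone.

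Ocln is a gene of tubule epithelium as well. Across the libraries its lowest value, 37.9 CPM, fell in the library with the lowest sum of tubule markers (knockout endothelium replicate 2, 2979 CPM), and its highest values, 92.8 and 89.8 CPM, fell in the 2 libraries with the highest sums (wild-type podocyte replicate 3, 9405 CPM, and wild-type endothelium replicate 3, 13787 CPM). The part of tubule RNA in the Ocln values was not tested. The highest value of Tjp1, 464 CPM, fell in the library with the highest sum of podocyte markers (wild-type podocyte replicate 2, 13462 CPM). Its lowest, 129 CPM, fell in the library with the lowest (wild-type endothelium replicate 3, 1059 CPM). Within each wild-type group the library higher in these markers was also higher in Tjp1. Within each knockout group the order was reversed. Replicate 2 was there the higher in Tjp1, at 192 against 147 CPM in endothelium and 331 against 272 CPM in podocytes. It was the lower in the markers, at 1203 against 1322 CPM and 6581 against 7537 CPM. Within the podocyte libraries the wild-type sums were 13462 and 8224 CPM and the knockout sums 6581 and 7537 CPM, so that knockout podocytes were lower in both Tjp1 and the podocyte markers. The part of the podocyte share in the Tjp1 values was not tested.

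**Figure D3:**
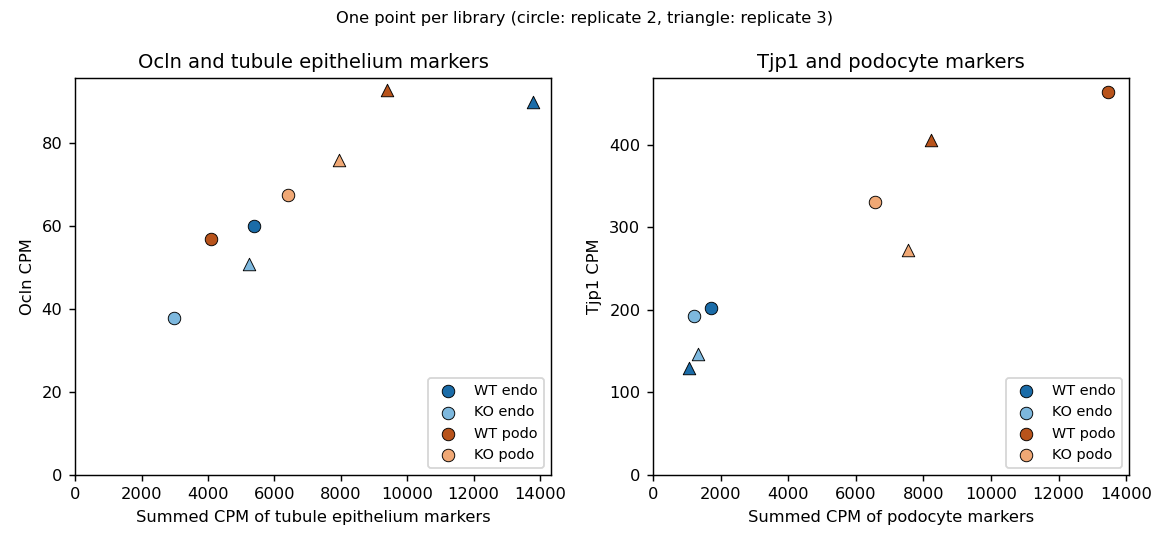
Left, Ocln CPM against the summed CPM of 8 tubule epithelium markers. Right, Tjp1 CPM against the summed CPM of 8 podocyte markers. Each point is 1 of the 8 libraries (circle replicate 2, triangle replicate 3, colour by group). Ocln is lowest (37.9 CPM) where the tubule sum is lowest and Tjp1 is highest (464 CPM) where the podocyte sum is highest.

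Jup, a catenin of adherens junctions and desmosomes, was the gene whose 4 groups all separated. It read 587 and 600 CPM in knockout endothelium, 504 and 465 CPM in wild-type endothelium, 371 and 328 CPM in wild-type podocytes and 299 and 267 CPM in knockout podocytes. No library of one group overlapped the next, where 3.79% of all genes had 4 groups separate in some order. In knockout, endothelium was higher by 1.07 ± 0.22 log2 units (edgeR adjusted p = 0.0114), and in wild type the log2 fold change was 0.47 ± 0.22 (95% interval -0.02 to 0.96, edgeR adjusted p = 0.277). The knockout call was lost without knockout endothelium replicate 2 (log2 fold change 1.08, edgeR adjusted p = 0.0528), without knockout endothelium replicate 3 (1.05, edgeR adjusted p = 0.0550) and without knockout podocyte replicate 3 (0.98, edgeR adjusted p = 0.0537). The test of the difference between the genotypes gave 0.60 ± 0.31 log2 units (unadjusted p = 0.0820, edgeR adjusted p = 0.999997) and did not pass, so that a call in knockout and none in wild type did not show that the genotypes differed. For Tjp1 the same test gave 0.56 ± 0.39 (unadjusted p = 0.176, edgeR adjusted p = 0.999997). That value was 0.27 without wild-type endothelium replicate 3, 0.35 without knockout endothelium replicate 2 and 0.91 without wild-type endothelium replicate 2.

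Levels between genes are compared per kilobase, as CPM divided by the mean length of the gene's protein-coding transcripts. In wild-type endothelium Esam was the most abundant at 792 ± 58.1 CPM per kilobase (SD, n = 2), followed by Pecam1 at 315 ± 61.3, F11r at 257 ± 5.30, Jup at 173 ± 9.88 and Jam2 at 103 ± 15.0. Tjp1 (36.3 ± 11.4), Jam3 (34.6 ± 3.73) and Ocln (32.1 ± 9.0) lay within one another's spread, and Cdh5 was the lowest at 21.3 ± 2.01 CPM per kilobase. With the longest transcript Jam3 (34.6 ± 3.73) stood above Tjp1 (23.5 ± 7.36) and Ocln (18.5 ± 5.19) in both libraries. Cdh5, which encodes the cadherin on which these junctions are built, thus had the lowest level per length of the 9 genes in wild-type endothelium, with the mean and with the longest transcript length. In knockout endothelium it stood at 26.6 ± 4.10 CPM per kilobase, above Ocln at 19.0 ± 3.96.

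In wild-type podocytes the order was another one. F11r led at 151 ± 20.9 CPM per kilobase, followed by Jup at 125 ± 10.9, Tjp1 at 95.2 ± 9.02 and Esam at 83.8 ± 29.7, of which Tjp1 and Esam overlapped. Ocln followed at 32.1 ± 10.9, Pecam1 at 13.4 ± 3.91, Jam2 at 8.60 ± 0.52, Jam3 at 8.36 ± 2.10 and Cdh5 at 1.86 ± 0.50. With the longest transcript in place of the mean, Esam fell to 391 CPM per kilobase in wild-type endothelium and to 41.4 in wild-type podocytes, and kept ranks 1 and 4. Jam2 (4.97 ± 0.30) then stood below Jam3 (8.36 ± 2.10) in wild-type podocytes. Over the 4 groups, 30 of the 36 ranks were the same with either length.

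The 9 genes give 36 ratios of 1 member to another within a library, and in 28 of them the endothelial and podocyte libraries did not overlap. The share among ratios of all other genes was not computed, so whether 28 is many cannot be said. These ratios follow from the levels given above and add no independent comparison. The 6 described here were picked with the levels known. F11r stood at 2.17 to 3.67 times Jam2, per kilobase, in the 4 endothelial libraries and at 12.2 to 20.2 times Jam2 in the 4 podocyte libraries. Jup stood at 4.07 to 6.69 times Tjp1 in endothelium and at 1.31 to 1.60 times Tjp1 in podocytes. The ratio of Jam2 to Jam3 was 1.72 to 3.05 in endothelium and 0.717 to 1.30 in podocytes. Esam stood at 2.32 to 3.17 times Pecam1 in endothelium and at 3.87 to 9.97 times in podocytes. The cell types did not overlap in any of these 4 ratios. The ratio of Ocln to Tjp1 did overlap, at 0.385 to 1.36 in endothelium and 0.240 to 0.545 in podocytes. Pecam1 stood at 11.6 to 15.8 times Cdh5 in endothelium. In podocytes it stood at 6.29 to 7.34 times Cdh5 in 3 libraries, below every endothelial library, and at 18.8 times in knockout podocyte replicate 3, whose Cdh5 value rests on 27 reads. The sizes of these ratios depend on the transcript length used, which does not change their order between libraries. With the longest transcript Jam2 stood at 0.993 to 1.76 times Jam3 in endothelium and at 0.415 to 0.754 times in podocytes, and F11r at 3.76 to 6.35 and 21.2 to 34.9 times Jam2.

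Loss of Emcn was followed by no change past the threshold in any of the 9 genes in endothelium, where 1 of 16477 genes tested passed (0.00607%), and that gene was Emcn itself (log2 fold change -3.43 ± 0.35, edgeR adjusted p = 0.0205). Emcn missed the threshold without any 1 of the 4 endothelial libraries, with log2 fold changes of -3.38 to -3.49 (edgeR adjusted p = 0.0838 to 0.191). Ocln alone of the 9 had an unadjusted p under 0.05, beside 905 genes of all tested (5.49%). Its level was 75 ± 21.0 CPM in wild-type endothelium and 44.4 ± 9.24 CPM in knockout endothelium (SD, n = 2 each), a log2 fold change of -0.76 ± 0.30 (95% interval -1.42 to -0.09, unadjusted p = 0.0294, edgeR adjusted p = 0.716). It was -0.45 without wild-type endothelium replicate 3, the library highest in tubule markers, -1.03 without wild-type endothelium replicate 2 and -0.41 with scaling by library size alone. The summed tubule markers were also lower in the knockout endothelial libraries (2979 and 5224 CPM) than in the wild-type ones (5384 and 13787 CPM), and their part in the difference was not tested.

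Cdh5, Esam and Jup had both knockout endothelial libraries above both wild-type ones, and F11r and Ocln had both below, where 24.8% of all genes were above and 19.7% below in this way (44.5% in either direction). Their log2 fold changes were 0.32 (95% interval -0.37 to 1.005) for Cdh5, 0.29 (-0.38 to 0.96) for Esam, 0.29 (-0.19 to 0.78) for Jup and -0.17 (-0.74 to 0.40) for F11r. For the genes that overlapped they were 0.03 (-0.67 to 0.73) for Pecam1, -0.26 (-0.93 to 0.40) for Jam2, 0.09 (-0.54 to 0.72) for Jam3 and 0.03 (-0.57 to 0.64) for Tjp1. Without knockout endothelium replicate 2 the value was 0.15 for Cdh5, 0.13 for Esam and -0.86 for Jam2. The Jam2 value was -0.12 without wild-type endothelium replicate 2 and -0.42 without wild-type endothelium replicate 3, and it turned positive without knockout endothelium replicate 3 (0.14). The F11r value was -0.30 without knockout endothelium replicate 2 and -0.060 without knockout endothelium replicate 3. With 2 libraries a group the intervals were wide, and reached 1.005 for Cdh5, 0.96 for Esam and -0.93 for Jam2. F11r and Jam2 turned positive when libraries were scaled by their totals alone (0.16 and 0.08), a scaling that moved the median of all genes to 0.33. With it Cdh5 stood at 0.65, Esam at 0.62 and Jup at 0.61.

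**Figure D4:**
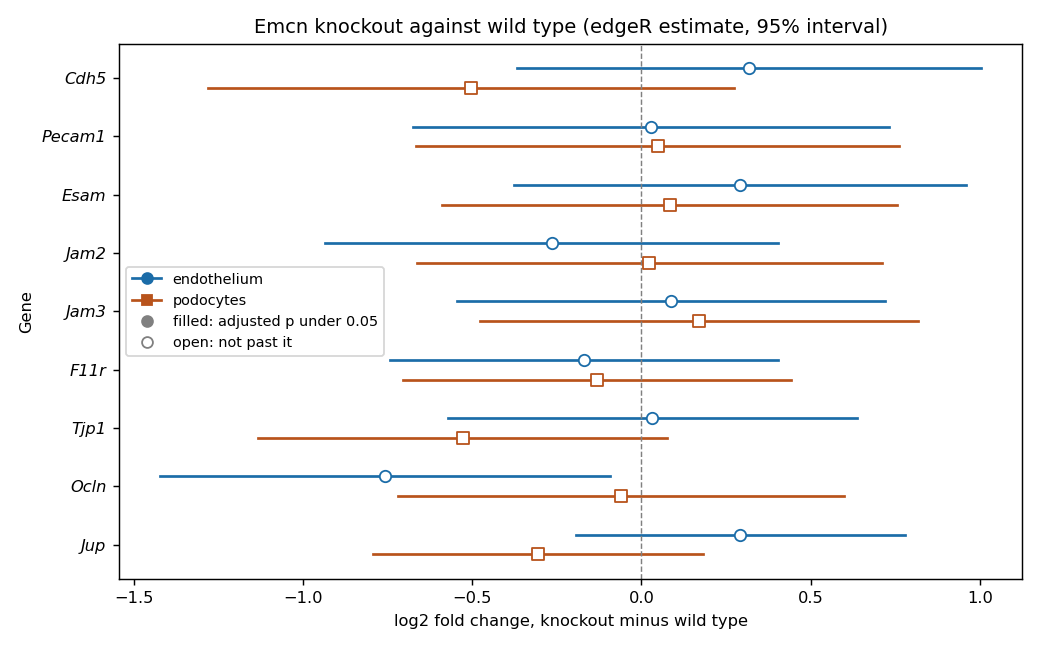
Difference between Emcn knockout and wild type for each gene, as the edgeR log2 fold change (knockout minus wild type) with its 95% interval, in endothelium (circles) and podocytes (squares). All symbols are open because none passed an adjusted p of 0.05 over all genes. The Ocln interval in endothelium, -1.42 to -0.09, is the one of the 18 that does not include 0.

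In podocytes none of the 9 genes passed either, where 1 of 16477 genes did (0.00607%), again Emcn (-3.38 ± 0.36, edgeR adjusted p = 0.0321). That call was lost without wild-type endothelium replicate 2 or 3 (edgeR adjusted p = 0.0638 and 0.0697), wild-type podocyte replicate 2 (0.139) or knockout podocyte replicate 2 or 3 (0.558 and 0.124). None of the 9 had an unadjusted p under 0.05, beside 730 of all genes (4.43%). Tjp1 and Jup had both knockout podocyte libraries below both wild-type ones and no member had both above, where 16.0% of all genes were below and 15.1% above in this way. Tjp1 was 435 ± 41.2 CPM in wild-type and 302 ± 41.4 CPM in knockout podocytes (SD, n = 2 each), a log2 fold change of -0.53 ± 0.27 (95% interval -1.13 to 0.08, unadjusted p = 0.0807, edgeR adjusted p = 0.978). Jup was 350 ± 30.4 and 283 ± 22.1 CPM, a log2 fold change of -0.30 ± 0.22 (-0.79 to 0.18, edgeR adjusted p = 0.978). The Jup value was -0.19 without wild-type podocyte replicate 2 and with scaling by library size alone.

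The podocyte values of the 5 endothelial genes were -0.50 (-1.28 to 0.27) for Cdh5, 0.05 (-0.67 to 0.76) for Pecam1, 0.08 (-0.59 to 0.76) for Esam, 0.02 (-0.66 to 0.71) for Jam2 and 0.17 (-0.48 to 0.82) for Jam3. Those of F11r and Ocln were -0.13 (-0.70 to 0.44) and -0.06 (-0.72 to 0.60). The Cdh5 value was -0.14 without knockout podocyte replicate 3, -0.17 without wild-type podocyte replicate 2 and -1.02 without knockout podocyte replicate 2. The endothelial markers summed to 917 and 679 CPM in wild-type podocytes and to 667 and 564 CPM in knockout podocytes.

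Averaged over both cell types, with 4 libraries against 4, none of the 9 genes passed, where Emcn was again the 1 gene of all tested that did (0.00607%). None of the 9 had an unadjusted p under 0.05, beside 1415 of all genes (8.59%). The largest difference by size was that of Ocln at -0.41 ± 0.21 (unadjusted p = 0.0801, edgeR adjusted p = 0.558), and the others ran from -0.25 for Tjp1 to 0.19 for Esam. The Tjp1 difference was -0.073 without wild-type endothelium replicate 2, -0.16 without knockout endothelium replicate 3 and -0.40 without wild-type endothelium replicate 3. That of Esam was 0.027 without knockout podocyte replicate 2, 0.048 without wild-type podocyte replicate 2 and 0.11 without knockout endothelium replicate 2. It was 0.31 without knockout podocyte replicate 3 and 0.39 without wild-type podocyte replicate 3. The Ocln difference was not the largest in every fit: without wild-type podocyte replicate 3 it was -0.22, smaller in size than that of Esam. It was -0.25 without wild-type endothelium replicate 3 and -0.18 with scaling by library size alone. The genotype effect in endothelium minus that in podocytes passed for none of the 16477 genes (0.0%) in edgeR, beside 428 at an unadjusted p under 0.05 (2.6%), and for none in DESeq2 or limma. Among the 9 genes it was largest for Cdh5 (0.82 ± 0.47, unadjusted p = 0.108) and lowest for Ocln (-0.70 ± 0.42, unadjusted p = 0.129), and edgeR's adjusted p was 0.999997 for all 9. The Cdh5 value was 0.45 without knockout podocyte replicate 3, 0.51 without wild-type podocyte replicate 2 and 1.33 without knockout podocyte replicate 2. At 0.45 it lay below that of Jup, which was at least 0.50 whichever library was left out. The Ocln value was -0.38 without wild-type endothelium replicate 3 or wild-type podocyte replicate 2. It was -1.10 without wild-type podocyte replicate 3 and -0.45 with scaling by library size alone.

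The surrounding junction genes were read from a list of 55 other adherens and tight junction components and regulators, of which 35 were on complete lines. Ctnnb1, Ctnna1, Ctnnd1, Afdn and Ptprb, whose products bind the cadherins or anchor these complexes to actin, were on incomplete lines and were not analysed here. In wild type 2 of the 35 were higher in endothelium, 6 were lower and 27 did not pass, where 4.26% of all genes were higher and 4.73% lower. Their median log2 fold change was -0.35, beside -0.01 for all genes. In knockout 2 were higher, 10 were lower and 23 did not pass, where 4.28% of all genes were higher and 6.09% lower, and the median was -0.75, beside -0.01. The 8 wild-type calls became 4 without wild-type podocyte replicate 2 and 5 without wild-type endothelium replicate 2, and the 12 knockout calls became 5 without knockout endothelium replicate 2, 8 without knockout podocyte replicate 2 and 7 with scaling by library size alone. The tubule markers summed to 2979 and 5224 CPM in knockout endothelium and to 6424 and 7960 CPM in knockout podocytes, and their part in these counts was not tested. Cdh1 and Cdh16 of this list were also counted among the tubule markers.

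Rasip1, an effector of Ras-family GTPases needed for endothelial junctions and lumens, was higher in endothelium by 2.82 ± 0.47 log2 units in wild type (edgeR adjusted p = 0.00322) and by 3.17 ± 0.48 in knockout (edgeR adjusted p = 0.00197). Amotl1, an angiomotin that links junctions to actin, was higher by 2.03 ± 0.22 in wild type (edgeR adjusted p = 0.000211) and by 2.20 ± 0.22 in knockout (edgeR adjusted p = 0.000156). Its relative Amotl2 went the other way, at -1.37 in wild type (edgeR adjusted p = 0.00479) and -1.23 in knockout (edgeR adjusted p = 0.00916). The wild-type call of Amotl2 was lost without wild-type endothelium replicate 3 (-1.16, edgeR adjusted p = 0.0612) and without wild-type podocyte replicate 2 (-1.21, edgeR adjusted p = 0.0723). Its knockout call was lost without knockout endothelium replicate 2 (-1.26, edgeR adjusted p = 0.0561) or 3 (-1.21, edgeR adjusted p = 0.0597) and without knockout podocyte replicate 2 (-1.06, edgeR adjusted p = 0.0524).

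The 5 other genes higher in wild-type podocytes encode adhesion and polarity proteins. They were the nectin Nectin4 (-2.38, edgeR adjusted p = 0.00293), the polarity genes Pard6b (-2.00, edgeR adjusted p = 0.0178) and Pard3 (-1.16, edgeR adjusted p = 0.0251), the adhesion receptor Cxadr (-1.61, edgeR adjusted p = 0.00405) and the tricellular junction gene Marveld2 (-1.06, edgeR adjusted p = 0.0128). Pard3, whose product binds junctional adhesion molecules, missed the threshold in knockout (-0.81, edgeR adjusted p = 0.101), and the other 4 passed there as well. In wild type Nectin4 and Cxadr passed under every alternative run. Marveld2 missed the threshold without any 1 of the 4 wild-type libraries, at -1.02 to -1.10 (edgeR adjusted p = 0.0623 to 0.120). Pard3 missed it without wild-type endothelium replicate 2 (edgeR adjusted p = 0.0677) or 3 (edgeR adjusted p = 0.188) and without wild-type podocyte replicate 2 (edgeR adjusted p = 0.291), and Pard6b without wild-type endothelium replicate 2 (edgeR adjusted p = 0.129) or wild-type podocyte replicate 2 (log2 fold change -1.15, edgeR adjusted p = 0.236). In knockout Nectin4 missed it without knockout endothelium replicate 2 (edgeR adjusted p = 0.0803), and Pard3 passed without knockout podocyte replicate 3 (-1.07, edgeR adjusted p = 0.0458) and was -0.50 without knockout podocyte replicate 2 (edgeR adjusted p = 0.494). Scaling by library size alone ended the calls of Pard3 in wild type (edgeR adjusted p = 0.0807) and, in knockout, of Amotl2 (edgeR adjusted p = 0.0921) and Nectin4 (edgeR adjusted p = 0.0510). In wild type neither Cdh2 (N-cadherin) at -1.55 ± 0.60 (edgeR adjusted p = 0.172) nor Cgnl1 (paracingulin) at -1.04 ± 0.37 (edgeR adjusted p = 0.131) passed, though Cgnl1 passed in knockout (-1.81, edgeR adjusted p = 0.0115). Cgnl1 passed in wild type without wild-type endothelium replicate 3 (-1.80, edgeR adjusted p = 0.0143) and missed in knockout without knockout endothelium replicate 2 (edgeR adjusted p = 0.0908), and its wild-type value was -0.55 without wild-type endothelium replicate 2. Cdh2 did not pass in knockout either (-1.68 ± 0.59, edgeR adjusted p = 0.109). Its knockout value was -0.68 without knockout podocyte replicate 2 (edgeR adjusted p = 0.683), and it passed without knockout podocyte replicate 3 (-2.27, edgeR adjusted p = 0.0269) or with DESeq2 (-1.68, adjusted p = 0.0235). Its wild-type value was -1.03 without wild-type podocyte replicate 2 (edgeR adjusted p = 0.638).

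None of the 35 passed in either genotype comparison, in their mean or in the test of their difference. In endothelium 6 of the 35 had an unadjusted p under 0.05, where 5.49% of all genes did. A log2 fold change below 0 was found for 24 of the 35, where 8185 of all 16477 genes were below 0, and their median was -0.35, beside 0.01 for all genes. In podocytes 2 of the 35 had an unadjusted p under 0.05 and the median was 0.00, beside 0.02 for all genes. The tubule markers were also lower in the knockout endothelial libraries, as given beside Ocln, and their part in this median was not tested.

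The genes whose levels followed 3 of the members most closely were ranked by Pearson's r of log2 CPM over the 8 libraries, among the 10080 genes that averaged 5 CPM or more. The 8 libraries share 1 split by cell type, so r is given as a description, with no p. Cdh5 was followed by Eng (0.999), Tmem204 (0.997) and Nrp1 (0.997). Tjp1 was followed by Disp1 (0.997), Nebl (0.993) and Sulf1 (0.993), and Jup by Marcks (0.980), Ccdc184 (0.979) and Mgat1 (0.976). Among the members, Cdh5 stood closest to Jam3 (0.985) and farthest from Tjp1 (-0.82), and Ocln stood at -0.51 with Cdh5, at -0.62 with Jup and at 0.19 with Tjp1.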

How the data were processed

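Polyadenylated RNA of sorted mouse kidney cells was sequenced as TruSeq libraries, per the labels. The authors deposited raw read counts per gene in 1 table for the 8 libraries. The submitters' processing notes name mm10 and DESeq2. The aligner, the counting tool and the use of strand are not given in the sources used here. Of 22533 gene lines 17326 held all 8 counts, and the other 5207 (23.1%) were not analysed here. Commas in the gene description had cut those lines short, so which genes were left out depended on the wording of their names. All 8 columns were read as counts.

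Counts on complete lines were tested with edgeR 4.0.16 (R 4.3.3): filterByExpr by group left 16477 genes, libraries were scaled by TMM, and a group-means model of the 8 libraries was tested with the quasi-likelihood F test. P-values were adjusted by Benjamini-Hochberg across the whole table, and genes under 0.05 were called. Standard errors came from each log2 fold change and its F statistic. Lengths came from GENCODE M21, and promoter windows from RefSeq. The edgeR fit was tested on simulated counts for the comparison of knockout with wild type in endothelium, and no other step was. Same-numbered libraries are not stated to share an animal, so the reported fit had no block.

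The members and lists were chosen with earlier results of these data known. All 9 members are named in every comparison, and partner genes are named by a list or as the 6 of largest change in each direction past the threshold in wild type. A gene on that list is not reported here. Alternatives were DESeq2 1.42.0 (its size factors, and its Wald test), limma 3.58.1 (voom with sample weights), other filters and scalings, mitochondrial genes left out, the replicate block, fits of only the libraries compared and each library left out.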

Additional observations from a re-analysis of the deposited data

How the results depend on the processing

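The counts of members past the threshold were 5 to 7 in the wild-type and 5 to 9 in the knockout comparison of cell types (6 in each as reported) over every alternative run, and 0 in every genotype comparison. Cdh5, Pecam1, Esam, Jam2 and Jam3 stayed higher in endothelium past the threshold under every alternative in both genotypes. Fits that left out 1 library had a lone sample in that group, which was assumed to vary like the other groups. The fit of only the libraries compared could not be made for the mean of both cell types or the difference between effects, since those use all 8.

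Over all genes, deviations of same-numbered libraries correlated at 0.19 and 0.16 between the genotypes within endothelium and podocytes. Between the cell types they correlated at -0.13 in wild type and 0.11 in knockout. With 2 numbers, these values did not show that the numbers pair the libraries. In all 4 groups replicate 3 was nonetheless the higher library in mitochondrial share, tubule markers and Ocln, and the lower one in Tjp1, F11r, Jam3, Cdh5 and the endothelial markers. The reported fit had no block, so these shared shifts stayed in its spread. The replicate number as a block raised the knockout count of members to 9, adding F11r (0.74, edgeR adjusted p = 0.0403), Tjp1 (-0.84, edgeR adjusted p = 0.0187) and Ocln (-0.71, edgeR adjusted p = 0.0452), and the wild-type count to 7, adding F11r (0.77, edgeR adjusted p = 0.0365). Among partner genes it gave 11 calls in wild type, with Cgnl1 (-1.15, edgeR adjusted p = 0.0168) and Cdh2 (-1.58, edgeR adjusted p = 0.0225), and 19 in knockout, with Cdh2 (-1.55, edgeR adjusted p = 0.0214) and Pard3 (-0.78, edgeR adjusted p = 0.0451). All genes called under the block were 1831 in wild type and 2241 in knockout, and 2 in the mean of both cell types. With the podocyte numbers swapped, which was chosen after seeing the data, they were 1357 and 1578.

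Over all genes, leaving out 1 library gave 769 to 1672 calls in wild type (1481 as reported), 960 to 1809 in knockout (1709), 0 to 1 in the endothelial genotype comparison and 0 to 1 in the podocyte one. DESeq2 called 4 genes in endothelium, 8 in podocytes and 14 in their mean. In edgeR, genes of at least 5 CPM and scaling by library size each gave 0 calls in endothelium (407 and 1002 at an unadjusted p under 0.05) and 0 in podocytes (368 and 588). In podocytes limma gave 0 (608) and the 4 compared libraries alone gave 0 in edgeR (545).

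The sign of these uncalled values changed. With DESeq2 size factors or DESeq2, Pecam1 was -0.022 and Tjp1 -0.016 (-0.015 with DESeq2) in endothelium and Pecam1 was -0.0027 (-0.0028 with DESeq2) in the mean. With library size only, which moved the median of all genes to 0.27 in the knockout cell-type comparison, 0.33 in endothelium, 0.13 in podocytes, 0.23 in the mean and 0.18 in the difference, Jam2 was 0.078 and F11r 0.16 in endothelium and Ocln 0.041 in podocytes. In the mean Cdh5 was 0.13, Jam2 0.10, F11r 0.075 and Jup 0.21, and in the difference Pecam1 was 0.18, Jam3 0.12, F11r 0.18 and Emcn 0.15. With at least 5 CPM, Cdh5 was 0.019 and Jup 0.11 in the mean, and Pecam1 0.053, Jam3 0.014, F11r 0.062 and Emcn 0.032 in the difference. Pecam1 was 0.0072 in the difference with limma, and Ocln -0.0050 in wild type with swapped numbers. The cause was not tested.

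Leaving out 1 library at a time changed the sign of some log2 fold changes that were not called, and the log2 fold change ranged as follows. In the wild-type comparison of cell types it ran from -0.32 to 0.40 for Ocln. In the endothelial genotype comparison it ran from -0.20 to 0.23 for Pecam1, -0.86 to 0.14 for Jam2, -0.068 to 0.22 for Jam3 and -0.26 to 0.38 for Tjp1. In the podocyte one it ran from -0.34 to 0.39 for Pecam1, -0.23 to 0.50 for Esam, -0.054 to 0.093 for Jam2, -0.21 to 0.48 for Jam3, -0.43 to 0.11 for F11r and -0.35 to 0.33 for Ocln. In the mean of both it ran from -0.36 to 0.084 for Cdh5, -0.16 to 0.22 for Pecam1, -0.42 to 0.082 for Jam2, -0.066 to 0.29 for Jam3 and -0.055 to 0.061 for Jup. In the difference between effects it ran from -0.35 to 0.36 for Pecam1, -0.21 to 0.52 for Esam, -0.88 to 0.12 for Jam2, -0.38 to 0.29 for Jam3, -0.29 to 0.26 for F11r and -0.67 to 0.37 for Emcn.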
